A study of Mus musculus with 8 samples.

Results

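The 1000 intervals with the strongest Bcl11b binding in wild type thymocytes were described here. They were chosen by averaging the normalised read count (CPM, reads scaled to the size of the library) over the 3 wild type libraries and taking the 1000 highest intervals on chromosomes 1 to 19 and X. A short region of chromosome 17, whose 8 intervals lay between 39843261 and 39848661, was left out of the choice. The 1000 members came from 62984 intervals that met these conditions, and from 63098 tested in all. Each interval was about 0.20 kb long. The assay was ChIP-seq, in which chromatin is precipitated and its DNA sequenced, here with a rabbit antibody against Bcl11b in freshly isolated mouse thymocytes, the developing T cells of the thymus. The 2 genotypes compared were Bcl11b+/N440K (3 libraries), heterozygous for an allele named for an amino acid exchange in Bcl11b, and Bcl11b+/+ (3 libraries), with no mutant allele. The sources used here state neither the age of the mice nor whether replicates were separate animals. The spread behind each p-value is therefore that of the libraries and may be technical. Input libraries of Bcl11b+/+, 2 in number, were not used here, so no level is given over a background of unprecipitated DNA. The antibody is labelled as one against Bcl11b with no mention of alleles, so the values do not separate protein made from the N440K allele from wild type protein in the same cells.

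Developing thymocytes need Bcl11b, a transcription factor with zinc fingers, to commit to the T cell lineage and to keep the programmes of progenitor and natural killer cells switched off. It recruits corepressor complexes such as NuRD, and in thymocytes it is known to occupy both promoters and distant regulatory regions together with Runx1 and other T cell factors. Its paralog Bcl11a acts in early progenitors, B cells and neurons.

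Where a member lay on the start of a gene, the sequence around that start is known from RefSeq (build GRCm38.p6, with the same coordinates as mm10). The windows below run from 250 bases before to 50 bases after a transcription start, 5′ to 3′ on the strand of the gene. Capitals mark the bases that fell inside the member interval. The windows of Stag1, Lat, Ptpn22 and Klf13 belong to genes named further on, and that of Kdm5c, which was added after the values were seen, held the strongest member on any promoter and the only member on the X chromosome.
Kdm5c, chrX:152232977-152233276, plus strand: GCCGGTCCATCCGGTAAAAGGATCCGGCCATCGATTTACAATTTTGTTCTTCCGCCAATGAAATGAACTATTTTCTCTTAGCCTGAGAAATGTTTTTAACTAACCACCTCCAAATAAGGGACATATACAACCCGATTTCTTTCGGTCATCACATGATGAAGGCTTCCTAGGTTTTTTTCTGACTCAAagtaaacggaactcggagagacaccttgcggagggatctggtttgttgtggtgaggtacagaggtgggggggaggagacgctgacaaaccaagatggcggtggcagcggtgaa
Stag1, chr9:100643198-100643497, plus strand: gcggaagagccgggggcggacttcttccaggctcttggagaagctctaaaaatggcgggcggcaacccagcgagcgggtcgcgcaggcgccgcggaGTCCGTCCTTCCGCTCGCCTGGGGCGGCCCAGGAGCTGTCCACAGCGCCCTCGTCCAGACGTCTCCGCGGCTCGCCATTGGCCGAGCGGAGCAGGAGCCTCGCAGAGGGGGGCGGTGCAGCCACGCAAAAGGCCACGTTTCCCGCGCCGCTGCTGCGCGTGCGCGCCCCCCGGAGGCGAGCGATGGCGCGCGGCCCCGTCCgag
Lat, chr7:126369519-126369818, minus strand: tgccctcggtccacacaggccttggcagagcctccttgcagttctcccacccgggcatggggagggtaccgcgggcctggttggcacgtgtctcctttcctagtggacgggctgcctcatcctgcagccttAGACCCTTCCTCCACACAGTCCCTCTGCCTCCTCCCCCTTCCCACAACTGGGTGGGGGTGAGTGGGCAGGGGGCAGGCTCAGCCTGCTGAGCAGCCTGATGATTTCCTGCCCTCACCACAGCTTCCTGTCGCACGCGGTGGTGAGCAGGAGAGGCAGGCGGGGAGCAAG
Ptpn22, chr3:103860027-103860326, plus strand: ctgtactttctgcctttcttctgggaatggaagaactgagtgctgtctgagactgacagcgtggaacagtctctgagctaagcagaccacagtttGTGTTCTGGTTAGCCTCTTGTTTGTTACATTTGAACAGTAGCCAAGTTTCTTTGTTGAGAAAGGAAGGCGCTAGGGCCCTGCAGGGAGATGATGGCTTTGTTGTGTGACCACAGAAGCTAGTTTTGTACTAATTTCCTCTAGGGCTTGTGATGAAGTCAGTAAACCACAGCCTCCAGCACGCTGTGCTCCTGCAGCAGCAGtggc
Klf13, chr7:63938866-63939165, minus strand: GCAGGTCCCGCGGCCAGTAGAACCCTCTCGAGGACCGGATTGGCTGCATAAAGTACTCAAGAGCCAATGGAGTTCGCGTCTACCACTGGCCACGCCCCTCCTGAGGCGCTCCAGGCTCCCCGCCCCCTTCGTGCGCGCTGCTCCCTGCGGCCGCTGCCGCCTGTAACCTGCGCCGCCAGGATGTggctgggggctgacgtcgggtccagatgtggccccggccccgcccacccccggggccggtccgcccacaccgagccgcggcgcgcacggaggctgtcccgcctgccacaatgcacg
The Kdm5c interval ranked 13 and held 187 bases of its window, those farthest upstream. It averaged 117 ± 21.1 CPM in Bcl11b+/N440K and 118 ± 13.3 CPM in Bcl11b+/+ thymocytes (SD, n = 3 each). Kdm5c encodes a demethylase of histone H3 lysine 4. At Stag1, which encodes a cohesin subunit, the whole interval lay in the window, with 98.8 ± 10.8 CPM in Bcl11b+/N440K and 96.1 ± 11.5 CPM in Bcl11b+/+ (SD, n = 3 each). The 5 windows differed widely in base composition. Ptpn22 had 3 CpG dinucleotides and 48.7% G and C, while Stag1 had 43 CpG and 73.7%.

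The weakest members and the intervals just below them could not be told apart by their level. The members ranked 998 to 1000, nearest to Mex3b, Tex2 and Gm572, averaged 53.2386, 53.2364 and 53.2311 CPM in wild type. The next 3 intervals, nearest to Abhd2, Lef1 and Prpf38b, averaged 53.2301, 53.2187 and 53.2176 CPM. The limit is therefore a number of intervals and not a gap in the signal. Over the members the median level was 67.0, 65.3 and 66.6 CPM in the 3 Bcl11b+/N440K libraries, against 66.3, 60.9 and 64.0 CPM in the 3 Bcl11b+/+ libraries. Over all tested intervals the median lay between 11.59 and 12.02 CPM in each of the 6 libraries.

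The strongest wild type interval lay 30.9 kb outside Tcf7, which encodes the T cell factor TCF-1, on chromosome 11 from 52314313 to 52314513. It had 200, 209 and 185 CPM in the Bcl11b+/N440K libraries, against 198, 170 and 168 CPM in the Bcl11b+/+ libraries. The genotypes overlapped, and the interval was the strongest in both. Tcf7 had 2 further members, 26.2 and 35.1 kb outside the gene, so that the 3 spanned 9.14 kb. The member ranked 6 lay on chromosome 2 from 101551415 to 101551615, with 143, 132 and 137 CPM in Bcl11b+/N440K and 141, 125 and 124 CPM in Bcl11b+/+. The nearest gene was Iftap, at 9.2 kb. A second member beside it, ranked 465, lay 72.1 kb from Rag2 and 85.6 kb from Rag1, which together encode the recombinase that assembles antigen receptor genes. The member ranked 12 lay 3.3 kb outside Trac, the constant region of the T cell receptor alpha chain. It had 133, 139 and 145 CPM in Bcl11b+/N440K and 134, 121 and 110 CPM in Bcl11b+/+, with overlap between the genotypes.

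Other intervals among the 10 highest stood near genes outside the lists of T cell genes, or far from any gene. The member ranked 5 lay inside Sorcs2, a sorting receptor known from neurons. It had 170, 170 and 159 CPM in the Bcl11b+/N440K libraries and 152, 127 and 135 CPM in the Bcl11b+/+ libraries, so every mutant library was above every wild type library. Its log2 fold change, 0.28 with an SE of 0.09, did not pass the threshold of 0.05 (adjusted p = 0.138, edgeR quasi-likelihood test with Benjamini-Hochberg adjustment). Ranks 7 to 10 lay 39.1 kb outside Il6st, which encodes the signalling receptor gp130, inside Xrcc6, a DNA end-joining protein, 12.9 kb outside Anapc16, a subunit of the anaphase-promoting complex, and 13.6 kb outside Spats1. Their means ran from 124 to 137 CPM in Bcl11b+/N440K and from 123 to 126 CPM in Bcl11b+/+. Rank 3 (chromosome 1, 51585034 to 51585234) and rank 4 (chromosome 2, 98662597 to 98662797) had no protein-coding gene within 100 kb. The edgeR test, which called 1.14% of all tested intervals, called none of the 10 highest, with 2 at an unadjusted p under 0.05. DESeq2, which called 0.0951% of all tested intervals, also called none of them. Limma voom, which called 0.504% of all, called 1, at Sorcs2.

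**Figure D1:**
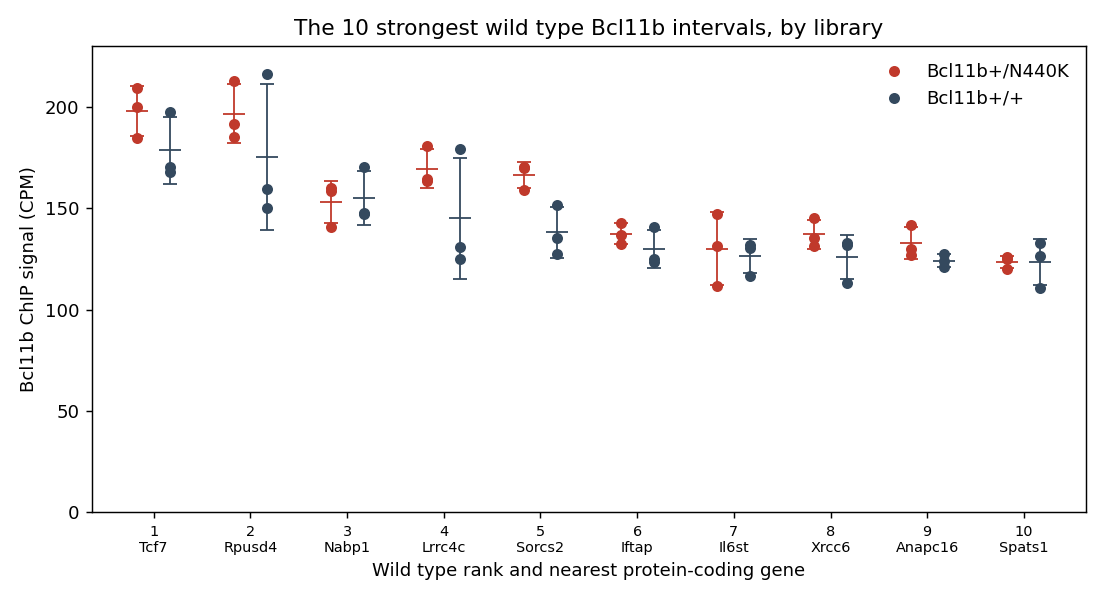
Bcl11b ChIP signal (CPM) in each library at the 10 strongest wild type intervals, named by the nearest protein-coding gene, with the Bcl11b+/N440K libraries (n = 3) left of the Bcl11b+/+ libraries (n = 3) and a bar at each mean. Rank 1 near Tcf7 averaged 198 CPM in Bcl11b+/N440K and 179 CPM in Bcl11b+/+, and the wild type libraries spread most at ranks 2 and 4.

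A few of the strongest intervals had nearly the same number of reads in every library, whatever its depth. The libraries held 1817776, 1656164 and 1925619 reads in tested intervals for Bcl11b+/N440K and 1609762, 2400250 and 2318747 for Bcl11b+/+. The interval ranked 2, 29.3 kb outside Rpusd4 on chromosome 9, had 346, 349 and 356 reads in the Bcl11b+/N440K libraries and 349, 364 and 372 in the Bcl11b+/+ libraries. Its reads did not follow the depth, so its CPM of 216 in the shallowest wild type library stood above the 150 and 160 of the deeper ones. At 7 members the highest count was at most 1.1 times the lowest, against a median ratio of 1.6 over all members. These 7 were the interval near Rpusd4, 3 intervals of a group on chromosome 2 over 1 Mb from the nearest gene, Lrrc4c, and single intervals nearest to Pex2, Samd9l and Lars2. Their log2 fold changes lay between 0.18 and 0.27. None was called by edgeR, DESeq2 or limma voom, while 4 had an unadjusted edgeR p under 0.05. Over all tested intervals edgeR called 1.14%, and 12.7% had an unadjusted edgeR p under 0.05. All 8 intervals of the excluded region behaved in this way, and no interval of any library exceeded 498 reads, a value reached to within 1 read in each.

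Among the wild type libraries, strong intervals as a whole also gained fewer reads with depth than the rest. Wild type replicate 2 held 1.49 times the reads of replicate 1 over all tested intervals, while the median ratio was 1.398 over the 1000 members, 1.31 over the first 100 and 1.02 over the excluded region. Wild type replicate 3 gave 1.44, 1.41, 1.36 and 1.02 for the same sets. The Bcl11b+/N440K libraries, which differ less in depth, did not show this: replicate 1 held 1.098 times and replicate 3 held 1.16 times the reads of replicate 2, and the median ratios over the members were 1.14 and 1.19. Between the libraries of different genotype closest in depth, Bcl11b+/N440K replicate 2 over Bcl11b+/+ replicate 1, the median log2 ratio was -0.06 over the first 100, -0.04 over the members and -0.02 over all tested intervals. The part of depth in the other differences was not tested.

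**Figure D2:**
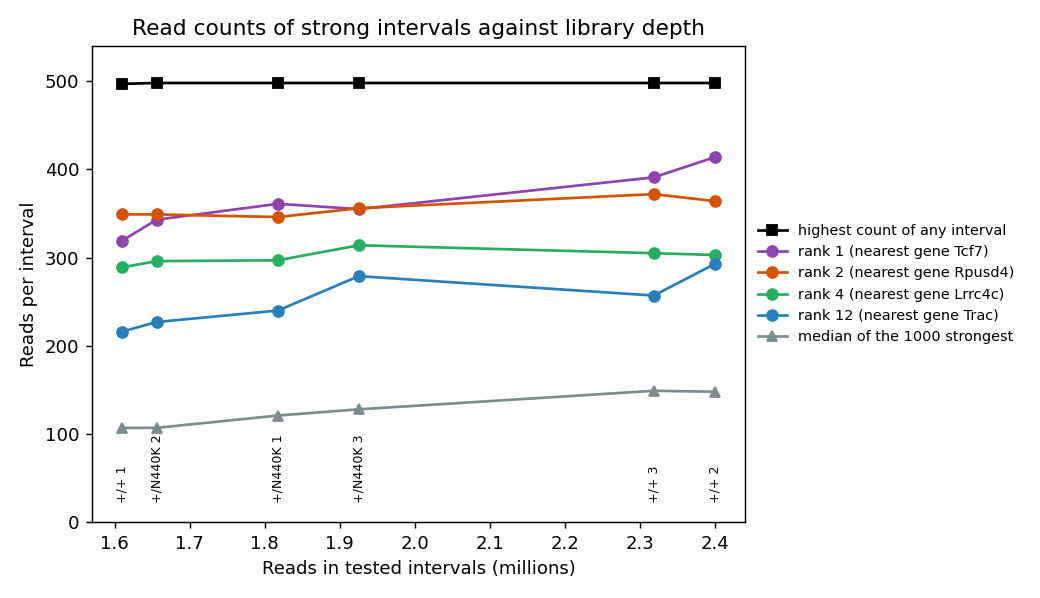
Reads per interval against the reads of each library in tested intervals, for the 6 libraries. The highest count of any interval stayed at 497 to 498 and that of rank 2 (Rpusd4) at 346 to 372, while the median of the 1000 members lay between 107 and 149.

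The 1000 members were spread over 743 genes, 5.51% of the 13480 protein-coding or constant-region genes to which any interval was assigned. A member inside a gene body was given to that gene and any other to the nearest gene within 100 kb, and 927 members found a gene in this way. The other 73 had no gene within that distance. Of the 743 genes, 607 had a single member, 107 had 2 and 29 had 3 or more.

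Of the 36 genes in a list of T-lineage identity genes, all had intervals and 21 had at least 1 member (58.3%), against 5.51% of all genes with an interval. These genes are bound at many places, so the count was also read per interval: 39 of the 635 intervals at the list's genes were members (6.14%), against 1.53% of all intervals assigned to a gene. Apart from Tcf7 and Trac, the highest were Ikzf1, encoding the factor Ikaros, with 91.2 ± 9.87 CPM in Bcl11b+/N440K and 93.5 ± 3.34 in Bcl11b+/+, and Ets1, an Ets-family factor, with 92.5 ± 9.74 CPM in Bcl11b+/N440K and 91.9 ± 2.41 CPM in Bcl11b+/+ (SD, n = 3 each). Cd2, an adhesion receptor, had 88.3 ± 1.54 CPM in Bcl11b+/N440K and 86.1 ± 10.3 CPM in Bcl11b+/+. Cd3d, a chain of the T cell receptor complex, had 88.3 ± 7.32 CPM in Bcl11b+/N440K and 82.1 ± 8.07 CPM in Bcl11b+/+. The genotypes differed at these 4 intervals by less than the larger of the SDs. Counting by distance alone, 30 of the 36 genes (83.3%) had a member within 100 kb of the gene body, against 13.7% of all 21907 genes. Cd4 was reached by a member 1.4 kb away, Ikzf3 by one 5.2 kb away, Runx3 by one 28.3 kb away and Myb by one 31.7 kb away, all assigned to other genes. The nearest member lay 261.4 kb from Gata3, 278.5 kb from Tcf12, 648.1 kb from Cd28, 741.3 kb from Ptcra, 867.3 kb from Zbtb7b and 937.5 kb from Il7r.

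Of 32 genes of T cell receptor signalling 10 had a member (31.2%), and 17 of their 486 intervals were members (3.498%). Over all genes with an interval 5.51% had a member, and 1.53% of all intervals assigned to a gene were members. Ptprc, encoding the phosphatase CD45, had its strongest member 15.9 kb outside the gene, with 81.2 ± 4.52 CPM in Bcl11b+/N440K and 83.2 ± 5.06 CPM in Bcl11b+/+ (SD, n = 3 each). The interval on the promoter of Lat, the adaptor that the receptor's kinases phosphorylate, had 56.5 ± 1.76 CPM in Bcl11b+/N440K and 63.6 ± 6.68 CPM in Bcl11b+/+. That of Ptpn22, a phosphatase that restrains the pathway, had 63.3 ± 7.90 CPM in Bcl11b+/N440K and 61.0 ± 8.32 CPM in Bcl11b+/+. None of the 17 was called by edgeR, DESeq2 or limma voom, with 1 at an unadjusted edgeR p under 0.05, where edgeR called 1.14% of all intervals and 12.7% were under that unadjusted p. No member fell to Fyn, Zap70, Plcg1 or Vav1, with the nearest 681.6, 214.5, 2008 and 4810.4 kb away.

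Genes of thymocyte maturation and exit had members at 5 of 12 genes, with 11 of 230 intervals (4.78%, against 1.53% of all intervals assigned to a gene). Klf13 alone held 6 of the 11. The genes with a member were Ccr9, a homing receptor for the chemokine CCL25, Klf13, Cxcr4, Bach2 and Foxo1. Genes of survival and the cell cycle had members at 4 of 15 genes with intervals, Bcl2l1, Ccnd3, Mcl1 and Bcl2l11. An interval inside Bcl2l1, which encodes the survival protein Bcl-xL, held 76.6 ± 3.33 CPM in Bcl11b+/N440K and 84.9 ± 6.50 CPM in Bcl11b+/+, and an interval inside Ccnd3, encoding cyclin D3, held 91.0 ± 2.55 CPM in Bcl11b+/N440K and 82.7 ± 3.73 CPM in Bcl11b+/+ (SD, n = 3 each; neither called).

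Lists of other lineages held few members, but most also held few intervals, and 1.53% of all intervals assigned to a gene were members. None of the 92 intervals at 17 early progenitor genes and none of the 61 at 6 regulatory T cell genes was a member. The B cell list had none among 8 genes with intervals, the erythroid list none among 3 and the thymic epithelium list none among 5. By distance alone, however, 4 of 11 B cell genes (36.4%) and 4 of 14 myeloid genes (28.6%) had a member within 100 kb, against 13.7% of all genes. The natural killer and innate lymphoid list had a single member among 119 intervals (0.840%). It lay inside Rora, with 62.9 ± 2.69 CPM in Bcl11b+/N440K and 72.1 ± 9.06 CPM in Bcl11b+/+. The myeloid list had a single member among 71 intervals (1.41%), 3.6 kb outside Itgam. The Notch list had a single member among 102 intervals (0.980%), 9.7 kb outside Notch1. In the neuronal list it was a single member among 55 intervals (1.82%), inside Cux1 and within 1 kb of a gene start or end. Of 23 genes of NuRD and Polycomb, the complexes that Bcl11b is known to work with, only Mbd3 had a member, 1 of 152 intervals (0.658%). The remaining lists gave 2 genes each: Stag1 and Wapl for chromatin architecture, Srsf1 and Srsf3 for splicing, Rpl3 and Rps14 for ribosomal proteins, and Actb and Ywhaz for housekeeping. In the same order, members were 2.86%, 2.94%, 4.17% and 2.35% of the intervals of these lists, all above 1.53%. These counts describe where the wild type signal was highest and carry no test.

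**Figure D3:**
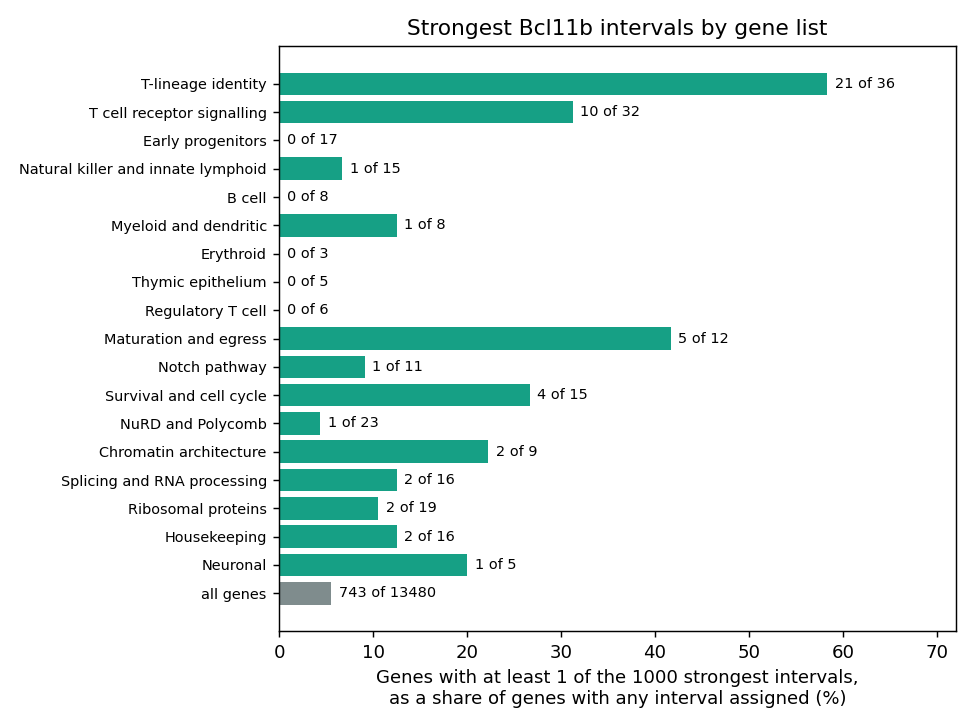
Share of genes with at least 1 of the 1000 strongest wild type intervals, among genes of each list with any interval assigned. T-lineage identity genes stood at 58.3% and maturation and egress genes at 41.7%, with all genes at 5.51%.

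Some genes collected several of the strongest intervals. Tex14, a gene of germ cell bridges, and Klf13, a zinc finger factor, had 6 members each, and Zfp36l2, an RNA-binding protein that promotes mRNA decay, had 5. Those of Tex14 spanned 40.1 kb and their summed level was 476 CPM in Bcl11b+/N440K, against 429 CPM in Bcl11b+/+. Those of Klf13 spanned 102.5 kb, with sums of 448 CPM in Bcl11b+/N440K and 395 CPM in Bcl11b+/+. Those of Zfp36l2 spanned 71.5 kb, with sums of 406 CPM in Bcl11b+/N440K and 393 CPM in Bcl11b+/+. A further 11 genes had 4 members, among them Ets1, the Ras activator Rasgrp1, Cd8b1, which encodes the CD8 beta chain, Clec16a, Sag, Rdm1, Mocos and the predicted gene Gm52008. At Ets1 the 4 members spanned 155.9 kb and had log2 fold changes between 0.00 and 0.06, the narrowest range among the genes with the most members that are named here. Members of 1 gene share a neighbourhood and are not replicates of each other.

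Most of the strongest intervals stood apart from each other. On the same chromosome, neighbouring members were separated by a median of 563 kb, with gaps from 1 bp to 35.2 Mb. Of the 1000 members, 150 had another member within 1 kb, 242 within 10 kb and 453 within 100 kb. Nearly all had weaker neighbours, since 920 had some other interval within 10 kb, against 85.9% of all intervals. Joining members no more than 10 kb apart gave 867 places, of which 758 held a single member, 91 a pair and 18 at least 3. The group with the most members was the 5 intervals of chromosome 2 between 98662597 and 98667221, 4.62 kb in all and over 1 Mb from any gene, whose summed level was 592 CPM in Bcl11b+/N440K and 507 CPM in Bcl11b+/+. This group holds 3 of the 7 members whose reads did not follow the depth. Groups of 4 lay inside Tex14 and Mocos and at Sirt4 and Alyref2, within 0.93 to 4.45 kb. Some groups of 3 had a T cell gene as the nearest gene. These were at Tcf7, between Trac and Dad1 over 6.66 kb, and at Rasgrp1 over 5.07 kb, Thy1 over 10.04 kb and Lag3 over 3.69 kb. The group assigned to Rasgrp1 lay 74.6 to 79.5 kb outside that gene, and the member nearest to Thy1 was 21 kb away. Other groups of 3 were nearest to genes such as Psmg1, Cerk, Zc3h4 and Mex3b. Thy1 is a surface glycoprotein of thymocytes and Lag3 an inhibitory receptor.

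The share of intervals that were members also varied by chromosome. Chromosome 1 had 86 members of 4077 intervals (2.11%) and chromosome 9 had 71 of 3473 (2.04%). Chromosome 4 had 35 of 3722 (0.940%). The X chromosome had 1 member, the Kdm5c promoter, among 1131 intervals (0.0884%), and its intervals had a median of 9.99 CPM in wild type, against medians from 11.01 to 12.83 CPM on the other chromosomes. The sex of the mice is not given in the labels, and whether copy number enters this difference was not tested.

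The very strongest intervals lay at the ends of genes less often than the intervals ranked below them. Within 1 kb of the start or end of a gene stood 12 of the first 100 members (12%; 95% exact Clopper-Pearson interval, 6.36 to 20.02%), 26% of ranks 101 to 250, 27.6% of ranks 251 to 500 and 36.2% of ranks 501 to 1000. The share went on to 43.3% for ranks 1001 to 2000 and 50.9% for ranks 5001 to 10000. It then fell to 46.3% for ranks 10001 to 20000, 33.9% for ranks 20001 to 40000 and 20.7% for ranks 40001 to 62984. The relation with strength therefore had its highest share at ranks 5001 to 10000, and a lower one above and below them. Over all members the share at gene ends was 30.1% (27.3 to 33.0%), inside genes 33.2% and outside genes 36.7%, against 33.1%, 38.5% and 28.4% over all 62984 intervals. The first 100 lay outside genes in 56% of cases. With the distance taken to RefSeq transcription starts, 30.3% of 973 members were within 1 kb, against 33.3% of all intervals, chromosome 18 left out. Exons and introns were not told apart.

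**Figure D4:**
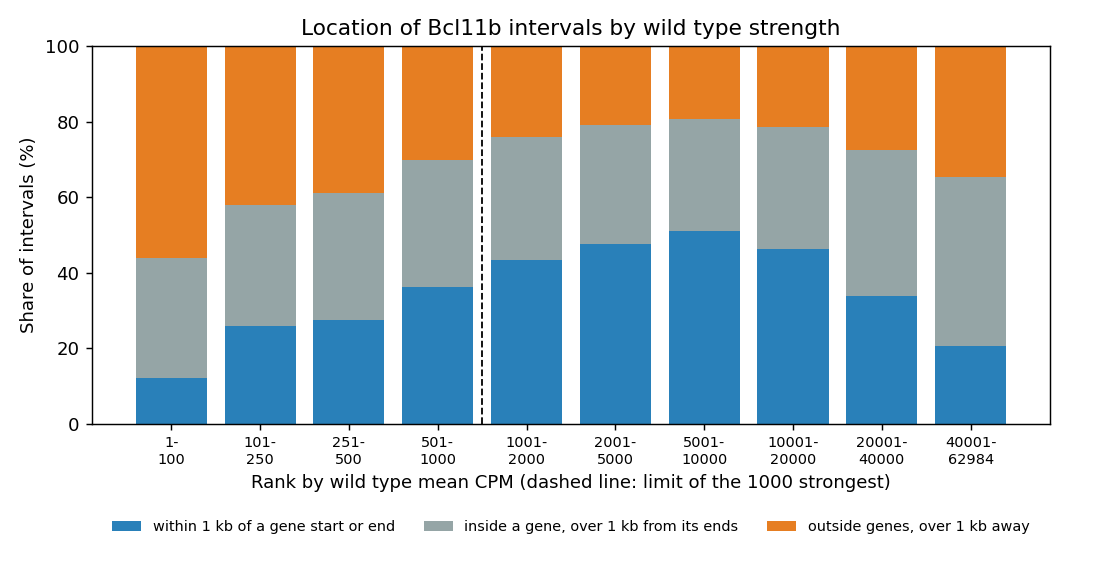
Share of intervals (%) within 1 kb of a gene start or end, inside a gene and outside genes, in bins of rank by wild type mean CPM, with the limit of the 1000 members as a dashed line. The share at gene ends was 12% in ranks 1 to 100, 36.2% in ranks 501 to 1000 and 50.9% in ranks 5001 to 10000.

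The members' reads were also summed by location, as a description. Intervals at gene ends took 29.2 ± 0.915% of the members' reads in Bcl11b+/N440K and 28.4 ± 1.35% in Bcl11b+/+ (SD, n = 3 each). Intervals inside genes took 32.6 ± 0.315% in Bcl11b+/N440K and 33.0 ± 0.766% in Bcl11b+/+, and those outside genes 38.2 ± 0.600% in Bcl11b+/N440K and 38.6 ± 0.676% in Bcl11b+/+.

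Promoters under the strongest intervals were rich in CpG, like promoters under weaker ones. A total of 211 members overlapped 270 RefSeq promoter windows of 300 bases. These windows had a median of 26 CpG and 62.8% G and C, against 23 and 62.3% for 10569 windows overlapping other intervals and 4 and 49% for 21705 windows overlapping none. The letters CCGGAAG, the core bound by Ets-family factors, were found on either strand in 34.8% of member windows, in 21.0% of windows with other intervals, in 2.69% of windows with none and in 8.91% of all windows. The Runx letters TGTGGTT were in 3.33% of member windows, 3.91% of windows with other intervals and 5.29% of all windows. The letters GGGCGG of SP and KLF factors were in 65.6% of member windows, against 67.8% of windows with other intervals and 35.9% of all windows. ATGGCGG, the YY1 letters, was in 11.5% against 9.15% and 4.08% for the same sets, and the NRF1 letters GCGCATG in 10% against 7.81% and 3.93%. The CCAAT letters of NFY were in 35.6% of member windows, 37.8% of windows with other intervals and 37.4% of all windows. The E-box CAGCTG was in 12.6%, 14.7% and 16.4% of the same sets, TCF and LEF letters CTTTGAA in 4.81%, 3.29% and 5.15%, GATA letters AGATAA in 5.56%, 5.27% and 11.2%, and AP-1 letters TGANTCA in 5.56%, 3.99% and 7.79%. None of the 5 windows printed above held the Ets letters. That of Kdm5c held the AP-1 letters once and that of Ptpn22 the Runx letters once. Some of these letters can overlap in G and C rich windows, a match is not a measured site, and the sequences of distant intervals were not analysed here.

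In Bcl11b+/N440K thymocytes the same intervals were, for the most part, again the strongest. Of the 1000 members, 830 (83%) were also among the 1000 highest by the mean of the Bcl11b+/N440K libraries, 981 were among the first 2000 and none ranked below 4606. Of the first 100, 76 were among the first 100 in the mutant, and of the first 10, 7 were. The lists of 1000 from single libraries shared 673 to 757 intervals between genotypes, 737 to 776 within Bcl11b+/N440K and 712 to 760 within Bcl11b+/+. These rest on single libraries and not on means, so they cannot be set directly against the 830. The members took 6.998 ± 0.125% of the reads in tested intervals in Bcl11b+/N440K and 6.83 ± 0.251% in Bcl11b+/+ (SD, n = 3 each), a difference smaller than the wild type spread. The lowest mean of any member in Bcl11b+/N440K was 35.7 CPM, at L3mbtl3, which is above the median of all intervals.

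The members' log2 fold changes, Bcl11b+/N440K over Bcl11b+/+, had a median of 0.05, with the middle of the distribution from -0.04 to 0.15 and extremes of -0.90 and 0.59. They were above 0 at 653 members and beyond 1.5-fold at 5. Over all tested intervals the median was 0.00. Since the members were chosen by the same wild type values that enter the fold change, these numbers are a description. The wild type values of a library that took no part in the choice give another reading. When the choice used only the other wild type libraries, 915, 937 and 920 of the members stayed, and the median of Bcl11b+/N440K over the library left out was 0.02, 0.12 and 0.07 for wild type replicates 1, 2 and 3. The sign of the median depended on the setting. It stayed positive with DESeq2 size factors in edgeR (0.05) and with total counts and no TMM (0.03). With loess offsets, which remove trends of the fold change with level, it was -0.04. Between only the libraries closest in depth, Bcl11b+/N440K replicate 2 and Bcl11b+/+ replicate 1, the median log2 ratio of the CPM values was -0.04 as well.

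Single members that changed were few. The edgeR quasi-likelihood test, adjusted over all 63098 intervals by Benjamini-Hochberg, called 16 of the 1000 members at 0.05 (1.6%), while it called 1.14% of all tested intervals. Of the 16, 9 were higher and 7 lower in Bcl11b+/N440K, against 0.46% and 0.681% of all intervals called in these directions. With loess offsets 18 were called, 2 higher and 16 lower, where 648 of all 63098 intervals were called, 245 higher and 403 lower. DESeq2 called 4 members, all lower, where it called 0.0951% of all intervals, 0.0333% higher and 0.0618% lower. Limma voom called 15, 10 higher and 5 lower, where it called 0.504% of all intervals, 0.273% higher and 0.231% lower. At an unadjusted edgeR p under 0.05 stood 142 of the 1000 members, against 12.7% of all intervals. At 135 members all Bcl11b+/N440K libraries were above all Bcl11b+/+ libraries, and at 46 members all were below, against 8.34% above and 8.95% below over all intervals. The count of 16 fell to 8 without Bcl11b+/N440K replicate 1 and to 7 without replicate 3, where 301 and 397 of all intervals were called.

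**Figure D5:**
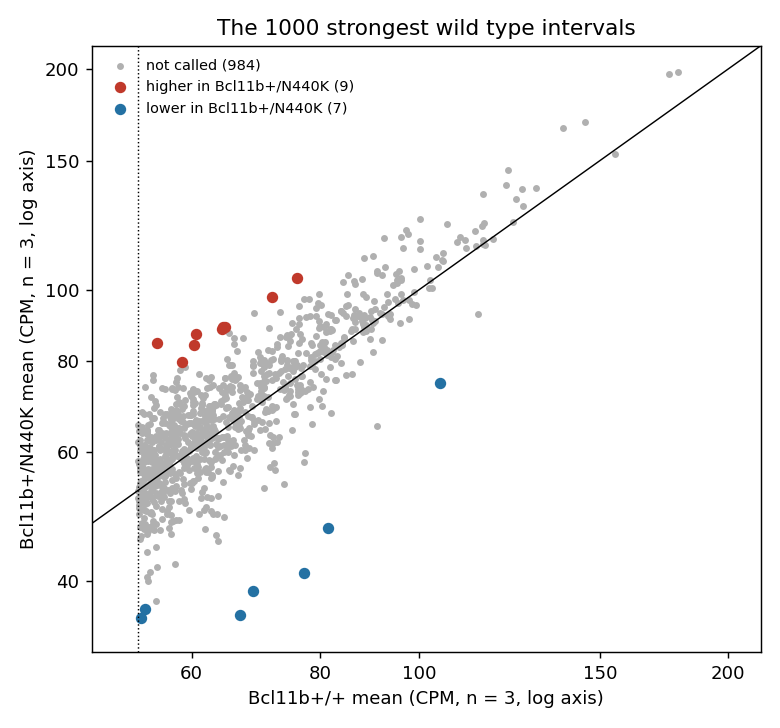
Mean CPM in Bcl11b+/N440K (vertical log axis, n = 3) against mean CPM in Bcl11b+/+ (horizontal log axis, n = 3) for the 1000 strongest wild type intervals, with the edgeR calls coloured. Most points lie along the line of equal levels, and the 7 called lower reach down to 35.7 CPM in Bcl11b+/N440K.

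The lower calls included 4 that edgeR, DESeq2, limma voom and the rest of the 14 alternative fits kept. Among the 14 was a refit on reads recovered from the CPM values. These equalled the counts, so that fit kept every call by construction. The lowest ratio was inside Rdm1, which encodes a protein with a motif of the repair factor RAD52, on chromosome 11 from 101627601 to 101627801. This interval lay within 1 kb of a gene start or end. It had 37.7, 43.9 and 41.6 CPM in the Bcl11b+/N440K libraries, against 82.4, 67.1 and 82.0 CPM in the Bcl11b+/+ libraries. Every mutant library was below every wild type library, and the log2 fold change was -0.90, with an SE of 0.13 (adjusted p = 2.84e-05, edgeR). Its 3 other members did not pass the test, with log2 fold changes from -0.44 to 0.32, and the member beside it, at 101627157, had 52.9 CPM in Bcl11b+/N440K and 61.4 CPM in Bcl11b+/+. A like pattern stood 0.4 kb from Alyref2, encoding an mRNA export adaptor, on chromosome 1 from 171502907 to 171503107. This interval had 41.5, 35.4 and 39.6 CPM in Bcl11b+/N440K and 71.3, 63.0 and 72.5 CPM in Bcl11b+/+, again with no overlap (log2 fold change -0.82, SE 0.14, adjusted p = 0.000215, edgeR). The 3 other members at Alyref2 lay within 1.26 kb and had log2 fold changes from -0.11 to 0.17. At both places a single member passed the test. Of the remaining lower calls, L3mbtl3, a reader of methylated lysine, had 35.7 ± 3.01 CPM in Bcl11b+/N440K and 53.5 ± 5.06 CPM in Bcl11b+/+. Adamts17, a secreted metalloprotease, had 36.6 ± 6.93 CPM in Bcl11b+/N440K and 54.1 ± 4.34 CPM in Bcl11b+/+ (SD, n = 3 each; edgeR adjusted p = 0.0348 and 0.0388). Of the 14 alternative fits, 6 kept the call at L3mbtl3 and 7 that at Adamts17, and both were lost without replicate 1 or 3 of Bcl11b+/N440K or replicate 1 of Bcl11b+/+. That at L3mbtl3 was also lost without Bcl11b+/N440K replicate 2 or Bcl11b+/+ replicate 3, and that at Adamts17 without Bcl11b+/+ replicate 2. Limma voom lost both as well (limma voom adjusted p = 0.0583 at L3mbtl3 and 0.0509 at Adamts17).

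The other 3 lower calls came from chromosome 12, at Bcl11b and its neighbour region. All 7 members between 106311106 and 107964982 were lower in each Bcl11b+/N440K library than in any Bcl11b+/+ library, with a median log2 fold change of -0.45. Over all tested intervals 8.95% were lower in this way, and the region was picked after its values were seen. Of them 2 lay inside Bcl11b and 4 were nearest to the predicted gene Gm52008, in the region that is known to hold distal enhancers of Bcl11b. The strongest, ranked 20 at 107160188, had 87.5, 103 and 88.0 CPM in Bcl11b+/N440K, against 114, 105 and 123 CPM in Bcl11b+/+ and did not pass the test (edgeR adjusted p = 0.162). The member at 107139087, ranked 31, had 65.9, 79.9 and 78.1 CPM in Bcl11b+/N440K and 120, 88.1 and 107 CPM in Bcl11b+/+ (edgeR adjusted p = 0.0213). Without Bcl11b+/N440K replicate 1 the adjusted p was 0.182, and without Bcl11b+/+ replicates 1 and 3 it was 0.127 and 0.0604. The members at 107124217 and, inside Bcl11b, at 107964782 were at 58.1% and 53.8% of the wild type level in Bcl11b+/N440K. Without these 7 members the median log2 fold change over the members was again 0.05. The strongest interval at Bcl11b, at 107928154, ranked 315 in wild type and 1193 in the mutant, with 53.5 ± 2.52 CPM in Bcl11b+/N440K and 70.6 ± 3.56 CPM in Bcl11b+/+ (SD, n = 3 each; edgeR adjusted p = 0.112). Bcl11a had no member. Its strongest interval ranked 18849, with 10.9 ± 2.32 CPM in Bcl11b+/N440K and 17.7 ± 0.914 CPM in Bcl11b+/+ (SD, n = 3 each; edgeR adjusted p = 0.163).

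DESeq2 called none of the 9 members that edgeR called higher, and it did not call 3 of the 7 that edgeR called lower. The largest was inside Sdc4, encoding the proteoglycan syndecan-4, on chromosome 2 from 164441228 to 164441428. It had 81.4, 89.1 and 83.3 CPM in the Bcl11b+/N440K libraries, against 49.6, 58.0 and 58.8 CPM in the Bcl11b+/+ libraries. The genotypes did not overlap, and the log2 fold change was 0.59, with an SE of 0.12 (adjusted p = 0.0036, edgeR). DESeq2 gave an adjusted p of 0.115 for this interval, the only one of the 14 alternative fits that lost it. Spag1, a factor for the assembly of ciliary dynein arms, had 86.9, 76.9 and 96.8 CPM in Bcl11b+/N440K and 73.7, 48.6 and 59.7 CPM in Bcl11b+/+ (edgeR adjusted p = 0.0142). Wild type replicate 1 stood well above the other wild type libraries there and just below the lowest mutant library. Nsmce1, a subunit of the SMC5/6 complex, had 84.0 ± 8.36 CPM in Bcl11b+/N440K and 60.3 ± 5.54 CPM in Bcl11b+/+. Pmel, a melanosome protein, had 88.9 ± 8.65 CPM in Bcl11b+/N440K and 64.4 ± 2.31 CPM in Bcl11b+/+. Tmem107, a protein of the ciliary transition zone, had 88.5 ± 9.41 CPM in Bcl11b+/N440K and 64.2 ± 5.02 CPM in Bcl11b+/+ (SD, n = 3 each). Their edgeR adjusted p-values lay between 0.0239 and 0.0288. The calls at Spag1, Nsmce1 and Tmem107 were lost without replicate 1 or 3 of Bcl11b+/N440K or replicate 2 of Bcl11b+/+, and that at Nsmce1 also without Bcl11b+/+ replicate 3. The call at Pmel was lost without replicate 1 or 2 of Bcl11b+/N440K or replicate 1 or 3 of Bcl11b+/+. The others were at Eapp, at Ccnt1, which encodes cyclin T1, inside the phosphatase gene Ptpra, and at the Klf13 promoter. Those at Eapp, Ccnt1 and Ptpra were lost without replicate 1 or 3 of Bcl11b+/N440K or replicate 1 of Bcl11b+/+, that at Eapp also without Bcl11b+/+ replicate 2 and that at Ccnt1 without Bcl11b+/+ replicate 3. Loess offsets lost the calls at Nsmce1, Pmel, Tmem107, Eapp, Ccnt1, Ptpra and the Klf13 promoter. Limma voom lost that at Ptpra (limma voom adjusted p = 0.0543).

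The Klf13 promoter, whose window is printed above, had 77.5, 79.9 and 81.7 CPM in the Bcl11b+/N440K libraries, against 62.0, 58.5 and 55.8 CPM in the Bcl11b+/+ libraries. Both genotypes were tight and did not overlap, and the log2 fold change was 0.45, with an SE of 0.12 (adjusted p = 0.0449, edgeR). Its 3 members at the gene start lay within 1.18 kb and had log2 fold changes of 0.34, 0.45 and 0.19 from low to high coordinates. The genotypes did not overlap at any of them, as at 8.34% of all tested intervals in this direction, and only the middle member was called. The call at the middle member was lost in 9 of the 14 alternative fits, among them those without any 1 of the 6 libraries. The member inside the gene had 48.2 CPM in Bcl11b+/N440K and 57.3 CPM in Bcl11b+/+, and was not called.

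Of the 39 members of the T-lineage list, edgeR called 1, at Bcl11b, where it called 1.14% of all tested intervals, and their median log2 fold change was 0.03, against 0.05 over all members. At an unadjusted edgeR p under 0.05 stood 7 of the 39, against 12.7% of all intervals. The 17 members at T cell receptor signalling genes had a median of -0.02. The 11 members at genes of maturation and exit had a median of 0.19, with 1 called, at the Klf13 promoter, and 4 at an unadjusted edgeR p under 0.05. Of these 11, however, 6 were at Klf13 and 2 at Ccr9, so the median rests largely on 1 gene and does not describe the list. Ccr9 had a member at 123754469 with 93.3 ± 1.05 CPM in Bcl11b+/N440K and 73.1 ± 6.07 CPM in Bcl11b+/+ (SD, n = 3 each; edgeR adjusted p = 0.123). The member of Cxcr4, at 128591206, had 64.3 ± 6.23 CPM in Bcl11b+/N440K and 75.2 ± 1.85 CPM in Bcl11b+/+. Of the 2 members of Lef1, the one at 131208637 had 58.0 ± 1.67 CPM in Bcl11b+/N440K and 72.1 ± 10.7 CPM in Bcl11b+/+. At these 3 intervals, named after their values were seen, the genotypes did not overlap, and none was called (edgeR adjusted p = 0.123 to 0.431). Over all tested intervals 8.34% were higher and 8.95% lower in Bcl11b+/N440K without overlap. The other Lef1 member, at 131014387, had 67.5 ± 3.381 CPM in Bcl11b+/N440K and 62.8 ± 5.50 CPM in Bcl11b+/+ (SD, n = 3 each; edgeR adjusted p = 0.816).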

How the data were processed

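Per the labels' protocols, thymocytes were cross-linked with 1% formaldehyde, sonicated and precipitated, and the DNA was sheared again to about 200 bp and sequenced on an Illumina HiSeq instrument. Per the submitters' processing notes, the tools included edgeR 3.38.2, bedtools, MACS2, SAMtools 1.9, Bowtie2 2.3.5 and fastp 0.20.0, with mm10 as the build and no roles stated. The sources used here do not state how intervals were called or whether duplicate reads were removed. The authors deposited raw read counts in 93708 intervals for the 6 ChIP libraries, and CPM values for 63098 of them. Deposited CPM values were counts scaled by a single factor in each library, since whole reads came back for 100% of the values (tolerance 0.01). The reads recovered in this way gave 720 calls, as the counts did.

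Members were ranked by the deposited CPM. The counts were tested with edgeR 4.0.16 (filterByExpr, TMM, glmQLFit and glmQLFTest, two-sided, genotype as the only term, Benjamini-Hochberg over all tested intervals, threshold 0.05). Total counts over tested intervals ran from 1609762 to 2400250, TMM factors from 0.990 to 1.012, and the common dispersion was 0.00903. Between genotypes, library pairs differed by a chi-square per degree of freedom of 1.55 to 1.77, and within a genotype by 1.24 to 1.42, above sampling noise in every pair. Alternatives were DESeq2 1.42.0, limma 3.58.1 voom, other scalings, filters and choices of members, a replicate block and leaving out each library. Genes were 21907 protein-coding and constant-region bodies from RefSeq on GRCm38.p6, without strand, and the promoter table held no chromosome 18. The 18 gene lists held 294 genes. The members and lists were chosen with earlier results of these data known. Intervals named in the text were the 10 highest, the genes with most members, the called members with the smallest p, the highest members of each list, the highest interval at Bcl11b and Bcl11a and those at the limit. Other members, such as Ccr9 at 123754469, Cxcr4, Lef1 and the groups of members, were named after their values were seen. Intervals for shares are exact Clopper-Pearson at 95% and cover counting error only.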

Additional observations from a re-analysis of the deposited data

How the results depend on the processing

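Over all intervals the main test called 720, DESeq2 60, limma voom 318 (172 higher, 146 lower), a threshold of 0.01 on the adjusted p 207 and the fits without 1 library 301 to 588. Among the members, where 16 were called, DESeq2 called 4, the threshold of 0.01 gave 5, and the fits without 1 library gave 7 to 16. Choosing 500 or 2000 members gave 10 and 35 calls. Choosing by the mean over all 6 libraries gave 22 calls, 19 higher and 3 lower. That choice uses the Bcl11b+/N440K values too and favours intervals high in that genotype. Its split of calls and its median log2 fold change are therefore partly set by the choice. With the replicate number as a block 30 members were called, 18 higher and 12 lower, where 753 of all intervals were called, 320 higher and 433 lower. Same-numbered libraries deviated together with correlations of only -0.00372, 0.0278 and 0.0577, so the numbers were not taken as pairs. The median log2 fold change of the members, 0.0501, was -0.0376 with loess offsets and -0.0352 between the libraries of different genotype closest in depth, an alternative chosen after the data had been seen. It was 0.0825 with no filter on low counts, 0.0837 with the mean over all 6 libraries as the choice, 0.0159 and 0.119 against wild type replicates 1 and 2 left out of the choice, and 0.0188 to 0.0683 in the fits without 1 library. The cause of these turns was not tested. The share of members at gene ends, 30.1%, was 44.9% within 5 kb, 24% for 500 members and 36.7% for 2000. The share with another member within 10 kb, 24.2%, was 15% within 1 kb, 20.4% within 5 kb, 38.3% within 50 kb, 19.2% for 500 members and 30.4% for 2000. The overlap with the highest in Bcl11b+/N440K was 80% for 500 intervals in place of 83%. The members' share of reads in Bcl11b+/N440K and Bcl11b+/+ was 4.03% and 3.94% for 500 members, 11.9% and 11.7% for 2000, and 6.37% and 6.15% over all intervals of the count table. Of 224 combinations of a called member and an alternative, 155 kept the call, 69 lost it and 0 reversed. The kept ones include the refit on recovered reads, which equalled the counts and so could not lose a call. Counts of 44 to 414 reads per member limit what could be detected. The highest counts of any interval, 497 to 498 reads, were reached in the excluded region. Whether a ceiling of this kind affects the members was not tested.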

Other observations

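The member ranked 76, 33 kb outside the chemokine receptor gene Ccr1, had 83.6, 26.8 and 84.8 CPM in the Bcl11b+/N440K libraries, against 113, 64.6 and 94.9 CPM in the Bcl11b+/+ libraries. The low mutant value came from 44 reads, where the other mutant libraries had 151 and 163. The interval was not called (edgeR adjusted p = 0.234). At 15 members wild type replicate 1 stood at least 1.4 times above the mean of the other wild type libraries, where the median over members was 1.05, and the excluded region gave 1.396 to 1.471. The excluded region held 8 intervals with means from 186 to 280 CPM in Bcl11b+/N440K and from 161 to 242 CPM in Bcl11b+/+. On unplaced sequences 6 intervals were above the members' limit. Intervals that were in the 1000 highest of Bcl11b+/N440K but not among the members numbered 170 as well, and the one with the lowest wild type rank, 6746, was nearest to Rbpms2. The member ranked 526 overlapped the hairpin of the microRNA Mir1945 on chromosome 16.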
